A study of Homo sapiens with 24 samples.

Results

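The integrated stress response genes ATF4, ATF3, DDIT3, CHAC1, TRIB3, ASNS, DDIT4, SESN2, PSAT1 and PPP1R15A were followed in bromouridine-labelled cytoplasmic RNA of U2OS cells, a human osteosarcoma line. They were taken by gene symbol, and all 10 were found among the 25341 genes of the deposited table and among the 13416 genes kept, whose TPM averaged 1 or more over the 24 libraries. TPM is an abundance per transcript length, scaled to the same total in each library. The 10 genes were a choice by name, made with earlier results of these data known, so their counts beside all genes describe this list only. Neither phosphorylation of eIF2 nor ATF4 protein was measured in these libraries.

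In this response a group of kinases phosphorylates the initiation factor eIF2 when amino acids, haem or folding capacity run short, or when double-stranded RNA appears. General translation then falls, while the ATF4 mRNA is translated more through its upstream open reading frames. ATF4 protein, a bZIP transcription factor, switches on genes for amino acid supply and redox balance, further transcription factors such as DDIT3 and ATF3, and the feedback regulators TRIB3 and PPP1R15A. Many of the mRNAs it induces are short-lived in cultured cells.

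The cells carried a custom Tet-off system. The induced arm expressed Tob2-S254D, a phosphomimetic mutant of a protein of the BTG/TOB family that links the CCR4-NOT deadenylase to mRNAs, because doxycycline was left out of the medium. The uninduced arm was the same line with doxycycline in the medium. RNA was labelled with bromouridine, chased for 0, 0.5, 1, 2, 4 or 6 h, taken from the cytoplasm and recovered with an anti-bromouridine antibody. There were 24 libraries, 2 for each arm and time, and the labels do not say that the 2 came from separate cultures, so p-values may measure technical spread only. Doxycycline is an antibiotic that also acts on mitochondrial ribosomes, and inhibition of mitochondrial translation is a known trigger of this stress response in cultured cells. The drug and the transgene changed together, so their parts in any difference between the arms cannot be told apart. Labelled RNA exported to the cytoplasm after the pulse cannot be told apart from RNA that was kept there, nor can fewer labelled cells from less labelled RNA per cell, and a loss shared by all RNAs leaves no trace in TPM.

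Promoters were read because several of these genes are known to hold binding sites for ATF4 and related factors. Windows from 250 bases before to 50 bases after the annotated start were taken from RefSeq on GRCh38.p14, a newer build than the hg19 of the deposited values, and all 10 genes matched, with 16 promoters in all. The core of the C/EBP-ATF response element, TGATGNAA on either strand, was present in 3 of 10 genes, ATF3, ASNS and CHAC1. It was present in 3.62% of all 35116 promoters of the same length and in 4.46% of the 27305 genes that have one. The cAMP response element TGACGTCA, which does not overlap the other motif in these genes, was present in 1 of 10 genes, PPP1R15A, and in 1.85% of promoters and 2.25% of genes. The matches are shown 5′ to 3′ on the strand of the gene, with the motif in capitals and the distance from the start given to its first and last base. In CHAC1 the motif lies on the opposite strand and so appears as its reverse complement. These letters describe the reference sequence, and no binding was measured.
ATF3 (chr1:212565206-212565233, plus strand, 191 to 184 bases upstream): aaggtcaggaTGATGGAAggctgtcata
ASNS (chr7:97872459-97872486, minus strand, 68 to 61 bases upstream): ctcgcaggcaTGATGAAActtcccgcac
CHAC1 (chr15:40953252-40953279, plus strand, 209 to 202 bases upstream): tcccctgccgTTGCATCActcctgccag
PPP1R15A (chr19:48872353-48872380, plus strand, 58 to 51 bases upstream): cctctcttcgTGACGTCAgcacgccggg

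Along the chase the 10 mRNAs took 3 courses in the deposited scaling. ATF3, DDIT3, CHAC1, DDIT4, SESN2 and PPP1R15A fell in both arms, and the amino acid enzymes ASNS and PSAT1 rose in both arms. ATF4 and TRIB3 had no slope past the threshold over the full chase in either arm. A slope here is the change of log2(TPM + 1) per hour from a straight line per arm, tested with limma with p-values adjusted by the Benjamini-Hochberg method over all genes kept and a threshold of 0.05. In the induced arm 6 of 10 members fell and 2 rose, against 29.0% falling and 41.6% rising among all genes. The uninduced arm had the same 6 falling and 2 rising members, against 22.3% and 42.8% of all genes. Other scalings moved ATF4 and TRIB3. In the induced arm 8 members fell under quantile normalization, 7 under median-of-ratios scaling and 8 with 3 abundant noncoding RNAs taken out of the total. In the uninduced arm 6, 7 and 7 fell under those scalings. Among all genes called in the induced arm, 58.89% rose as deposited, and 59.34%, 49.15% and 44.68% under those scalings. In the uninduced arm 65.75% of called genes rose as deposited, and 60.16%, 48.4% and 51.76% under those scalings. The median slope of the members was -0.30 per hour in the induced arm and -0.26 in the uninduced arm, beside 0.028 and 0.039 over all genes. Between the arms, 6 members were lower in the induced arm when averaged over the chase, against 11.4% of all genes, and 3 were lower at 6 h, against 8.04%. No member's slope differed between arms past the threshold, against 0.343% of all genes.

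As a group the mRNAs made up a smaller share of the labelled RNA at 6 h than at 0 h, and ATF4 was most of it by then. Together they made up 0.820% and 0.740% of the TPM in the 2 induced libraries of 0 h, against 0.924% and 0.784% in the uninduced libraries. At 6 h the shares were 0.400% and 0.397% in the induced arm, against 0.466% and 0.438% in the uninduced arm. ATF4 alone was 40.1% and 41.1% of the 10-gene sum at 0 h and 75.8% and 76.3% at 6 h in the induced arm. In the uninduced arm it was 37.2% and 44.2% at 0 h and 67.7% and 73.0% at 6 h. In TPM, a level per length, ATF4 and DDIT4 stood highest at 0 h, and their 2 libraries overlapped each other in both arms. DDIT3 followed, then PPP1R15A and TRIB3, which overlapped, then ATF3, CHAC1, SESN2 with PSAT1, which overlapped, and ASNS as the lowest. DDIT3 and TRIB3, and ATF3 and CHAC1, overlapped in the uninduced arm but not in the induced arm. By 6 h the order ran ATF4, TRIB3, DDIT4, PSAT1 in both arms, with overlap of DDIT4 and PSAT1 in the induced arm, and CHAC1 had become the lowest, apart from all others.

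**Figure D1:**
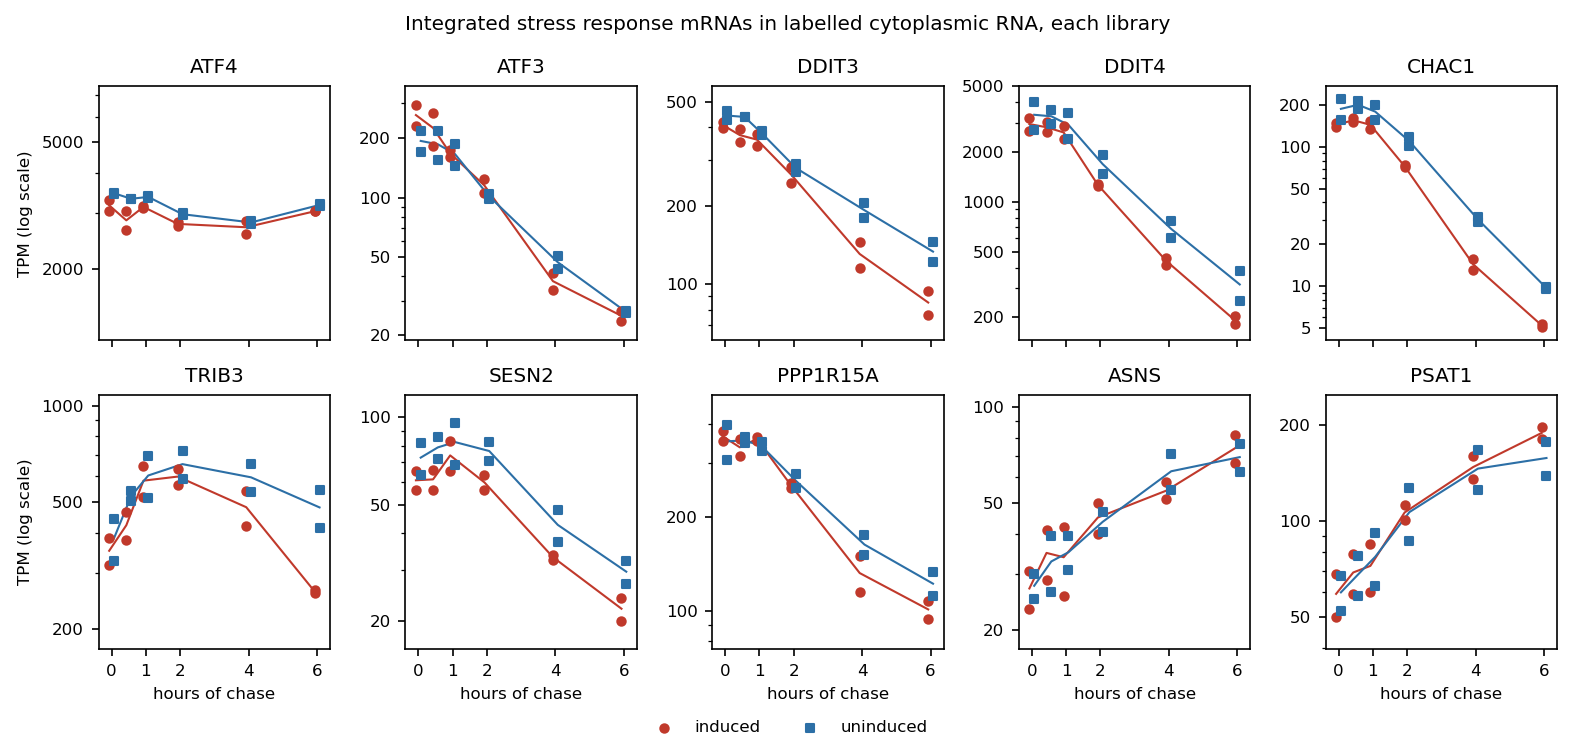
TPM on a log scale against hours of chase for each of the 10 genes, each point a library (red circles induced, blue squares uninduced) and each line the mean of 2 libraries. ATF4 stays between 2579 and 3466 TPM, TRIB3 climbs and then drops, ASNS and PSAT1 climb, and the CHAC1 points of the induced arm lie below those of the uninduced arm at all 6 times.

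ATF4, the transcription factor at the centre of the response, had the narrowest range of the 10 mRNAs relative to its level, taken as the highest over the lowest library of an arm. Its 2 induced libraries had 3287 and 3041 at 0 h, 3039.8 and 2640.2 at 0.5 h, 3144 and 3112 at 1 h, 2726 and 2811 at 2 h, 2825 and 2579 at 4 h, and 3034 and 3030.1 at 6 h (TPM). The 2 uninduced libraries had 3439 and 3466 at 0 h, 3315 and 3319 at 0.5 h, 3334 and 3389.9 at 1 h, 2948 and 2988 at 2 h, 2823 and 2772 at 4 h, and 3151 and 3194 at 6 h (TPM). Both induced libraries lay below both uninduced libraries at 5 of 6 times, and the groups overlapped at 4 h. The slope of ATF4 was -0.010 ± 0.015 per hour in the induced arm (SE, adjusted p = 0.537) and -0.029 ± 0.015 in the uninduced arm (adjusted p = 0.0868). These slopes depended on the scaling: with RMRP, MIR6723 and RPPH1, 3 abundant noncoding RNAs, taken out of the total, ATF4 fell in both arms, with slopes of -0.059 per hour (adjusted p = 0.00151) in the induced arm and -0.068 (adjusted p = 0.000494) in the uninduced arm. ATF4 also fell in the induced arm under quantile normalization (-0.050, adjusted p = 0.00144) and in the uninduced arm under median-of-ratios scaling (-0.079, adjusted p = 0.00347). The times used mattered too: over the chase to 4 h alone, in the deposited scaling, ATF4 fell in both arms. Its slope to 4 h was -0.05 per hour in the induced arm (adjusted p = 0.0401) and -0.079 in the uninduced arm (adjusted p = 0.0028). Set against the median of all genes, the slope of ATF4 over the full chase was -0.039 in the induced arm and -0.068 in the uninduced arm.

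DDIT3, which encodes CHOP, a bZIP factor induced by ATF4 and linked to cell death under lasting stress, fell in both arms. Its induced libraries had 397 and 419 at 0 h, 352 and 393 at 0.5 h, 339 and 377 at 1 h, 244 and 282 at 2 h, 116 and 146 at 4 h, and 76.2 and 94.1 at 6 h (TPM). The uninduced libraries had 459.6 and 426 at 0 h, 436 and 438 at 0.5 h, 372 and 387 at 1 h, 288 and 269 at 2 h, 206 and 179 at 4 h, and 145 and 122 at 6 h (TPM). The groups overlapped at 1 and 2 h and were apart at 0, 0.5, 4 and 6 h, with the induced libraries lower. The slope was -0.40 ± 0.019 per hour in the induced arm (adjusted p = 1.25e-14) and -0.30 ± 0.019 in the uninduced arm (adjusted p = 3.32e-12). DDIT3 overlaps MARS1 in the RefSeq annotation, and the sources used here do not state whether strand was used in counting, so part of its reads could belong to that gene.

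ATF3, also a bZIP factor and an immediate early gene, had steeper slopes than DDIT3. The 2 induced libraries held 229 and 294 TPM at 0 h, 124 and 106 TPM at 2 h and 23.6 and 26.7 TPM at 6 h. The 2 uninduced libraries held 169.7 and 217 TPM at 0 h, 104 and 98.7 TPM at 2 h and 25.9 and 26.6 TPM at 6 h. ATF3 was thus above the uninduced libraries at 0 and 2 h, below them at 4 h and overlapping at the other 3 times. Its slope was -0.59 ± 0.031 per hour in the induced arm and -0.50 ± 0.031 in the uninduced arm (adjusted p = 7.39e-14 and 2.20e-12).

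TRIB3, a pseudokinase that dampens ATF4 and DDIT3 activity and inhibits AKT, had its highest values in mid-chase. The induced libraries had 386 and 316 at 0 h, 464 and 379.8 at 0.5 h, 648 and 516 at 1 h, 634 and 564 at 2 h, 542 and 419.6 at 4 h, and 264 and 259 at 6 h (TPM). The uninduced libraries had 441 and 327 at 0 h, 539 and 502 at 0.5 h, 694 and 514 at 1 h, 721 and 590.1 at 2 h, 655 and 538 at 4 h, and 546 and 414 at 6 h (TPM). The highest value came at 1 or 2 h in the induced libraries and at 2 h in the uninduced libraries. At 6 h both induced libraries were below both uninduced libraries, and both were also below both induced libraries of 0 h. The uninduced libraries of 6 h overlapped those of 0 h, each lying above the one of its own number. A straight line misses this course, with slopes of -0.087 ± 0.049 per hour in the induced arm (adjusted p = 0.113) and 0.020 ± 0.049 in the uninduced arm (adjusted p = 0.737). The induced slope passed the threshold under other scalings, with -0.12 under median-of-ratios scaling (adjusted p = 0.00908), -0.15 under quantile normalization (adjusted p = 0.00525) and -0.14 without the 3 noncoding RNAs (adjusted p = 0.0104). The uninduced slope turned to -0.029 under median-of-ratios scaling, to -0.017 under quantile normalization and to -0.019 without the 3 noncoding RNAs. Over the chase to 2 h alone TRIB3 rose in both arms, by 0.39 per hour in the induced arm (adjusted p = 0.00846) and 0.36 in the uninduced arm (adjusted p = 0.0174).

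PPP1R15A encodes GADD34, a regulatory subunit of the phosphatase that removes the phosphate from eIF2 and so ends the response. Its 12 induced libraries had 94.2 TPM at the lowest, 286 at the median and 378 at the highest, against 112 TPM at the lowest, 290.5 at the median and 397 at the highest in the uninduced libraries. The 0 h mean was 365 ± 19.3 TPM in the induced arm and 351 ± 64.8 TPM in the uninduced arm (SD, n = 2 each). At 6 h the mean was 101 ± 9.77 TPM in the induced arm and 122 ± 15.1 TPM in the uninduced arm. The induced libraries lay below the uninduced ones at 4 and 6 h, above them at 1 h, and overlapped them at the other 3 times. PPP1R15A fell by 0.34 ± 0.023 per hour in the induced arm (adjusted p = 6.87e-12) and by 0.28 ± 0.023 in the uninduced arm (adjusted p = 3.87e-10).

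CHAC1, a gamma-glutamylcyclotransferase that breaks down glutathione, had the steepest slopes of the 10 genes in both arms. The induced libraries had 149 and 139.7 at 0 h, 161 and 151 at 0.5 h, 155 and 134 at 1 h, 71.4 and 74.1 at 2 h, 13.2 and 15.6 at 4 h, and 5.37 and 5.10 at 6 h (TPM). The uninduced libraries had 219.7 and 157 at 0 h, 215 and 188 at 0.5 h, 202 and 158 at 1 h, 118 and 102 at 2 h, 31.3 and 29.1 at 4 h, and 9.88 and 9.50 at 6 h (TPM). Every induced library lay below both uninduced libraries of its time, at all 6 times. CHAC1 fell by 0.84 ± 0.041 per hour in the induced arm and by 0.74 ± 0.041 in the uninduced arm (adjusted p = 1.65e-14 and 3.19e-13). Of all genes, 0.119% had a lower slope in the induced arm and 0.134% in the uninduced arm.

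DDIT4, also called REDD1, an inhibitor of mTORC1 signalling, started near ATF4 in level and ended far below it. Its induced libraries had 3237 and 2682 at 0 h, 3028 and 2631 at 0.5 h, 2867 and 2397 at 1 h, 1280.5 and 1252 at 2 h, 458 and 417 at 4 h, and 202 and 181 at 6 h (TPM). The uninduced libraries had 4025 and 2711 at 0 h, 3618 and 2978 at 0.5 h, 3434 and 2418 at 1 h, 1912 and 1473 at 2 h, 769 and 601 at 4 h, and 382 and 249.5 at 6 h (TPM). The groups overlapped at 0, 0.5 and 1 h, and the induced libraries were lower at 2, 4 and 6 h. DDIT4 fell by 0.71 ± 0.033 per hour in the induced arm and by 0.61 ± 0.033 in the uninduced arm (adjusted p = 7.89e-15 and 2.08e-13).

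SESN2, a sestrin that senses leucine and restrains mTORC1, had its highest mean level at 1 h in both arms. Its induced libraries had 65.4 and 56.2 at 0 h, 66.0 and 56.4 at 0.5 h, 82.8 and 65.2 at 1 h, 63.5 and 56.1 at 2 h, 32.4 and 33.7 at 4 h, and 24.0 and 20.0 at 6 h (TPM). In the uninduced libraries it had 82.0 and 63.5 at 0 h, 85.8 and 72.0 at 0.5 h, 95.8 and 68.8 at 1 h, 82.3 and 71.0 at 2 h, 48.0 and 37.4 at 4 h, and 32.1 and 26.9 at 6 h (TPM). The induced libraries were below the uninduced ones at 4 of 6 times and overlapped them at 0 and 1 h. SESN2 fell by 0.27 ± 0.033 per hour in the induced arm and by 0.24 ± 0.033 in the uninduced arm (adjusted p = 1.48e-07 and 9.48e-07), but up to 2 h its slope was 0.0025 in the induced arm and 0.031 in the uninduced arm (adjusted p = 0.991 and 0.861).

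The amino acid enzymes went the other way. ASNS, asparagine synthetase, had 30.7 and 23.2 TPM at 0 h and 81.6 and 66.5 TPM at 6 h in the induced libraries. The uninduced libraries had 30.0 and 25.0 TPM at 0 h and 76.3 and 62.6 TPM at 6 h, and the arms overlapped at all 6 times. ASNS rose by 0.22 ± 0.031 per hour in the induced arm and by 0.22 ± 0.031 in the uninduced arm (adjusted p = 1.10e-06 and 1.56e-06). PSAT1, phosphoserine aminotransferase of the serine pathway, had 68.3 and 50.1 TPM at 0 h and 197 and 180.1 TPM at 6 h in the induced libraries. The uninduced libraries had 67.2 and 52.5 TPM at 0 h and 177 and 138 TPM at 6 h. The arms overlapped at every time but 6 h, when both induced libraries were above. PSAT1 rose by 0.28 ± 0.034 per hour in the induced arm and by 0.24 ± 0.034 in the uninduced arm (adjusted p = 7.10e-08 and 1.25e-06). ASNS overlaps a read-through gene and pseudogenes in the RefSeq annotation, so its reads are less certain. A rise in TPM means a larger share of the labelled RNA, not more molecules.

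**Figure D2:**
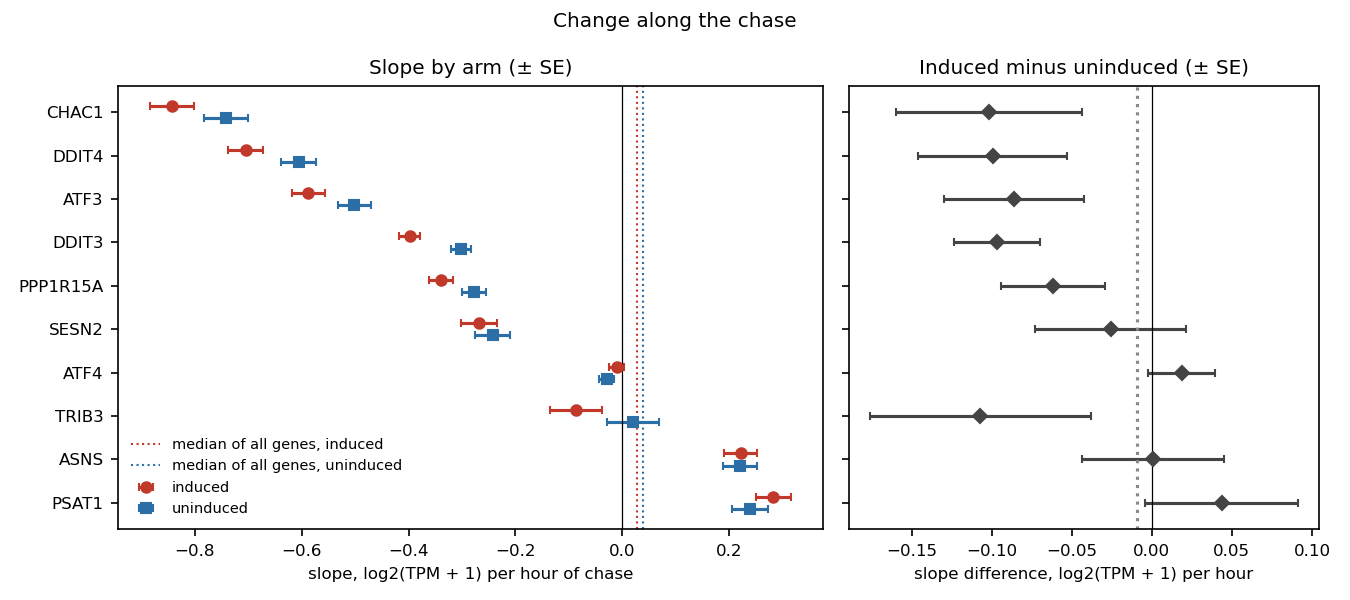
Left, slope of log2(TPM + 1) per hour of chase with its SE for each gene, red circles induced and blue squares uninduced, with dotted lines at the median of all genes. Right, the slope difference, induced minus uninduced, with its SE. The slopes run from -0.84 for CHAC1 to 0.28 for PSAT1 in the induced arm, and the differences lie between -0.11 for TRIB3 and 0.044 for PSAT1. The uninduced slope of TRIB3, near 0, changes sign under 3 of the scalings tried.

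The falling mRNAs did not all start to fall at once. Over the first hour the mean of CHAC1 changed by -0.0015 per hour in the induced arm and -0.056 in the uninduced arm, and that of PPP1R15A by -0.028 in the induced arm and -0.041 in the uninduced arm. Between 1 and 2 h CHAC1 changed by -0.98 per hour in the induced arm and -0.70 in the uninduced arm. Between 2 and 4 h its change was -1.13 per hour in the induced arm and -0.91 in the uninduced arm, its steepest interval in both. DDIT4 was steepest between 1 and 2 h, with -1.05 per hour in the induced arm and -0.78 in the uninduced arm. ATF3 was the gene with the lowest value in the first hour of the induced arm, at -0.63 per hour, beside -0.22 for the uninduced mean. The 2 uninduced libraries of ATF3 went opposite ways, with 0.14 and -0.58, and the gap between the arms was not tested. TRIB3 had the steepest climb of the 10 over the first hour, 0.72 in the induced arm and 0.65 in the uninduced arm. Of all genes, 98.2% had a lower value in the induced arm and 97.6% in the uninduced arm, and the median of all genes was 0.12 in the induced arm and 0.089 in the uninduced arm. Between 4 and 6 h TRIB3 changed by -0.43 per hour in the induced arm and -0.16 in the uninduced arm. These interval values are means of 2 libraries without a test.

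**Figure D3:**
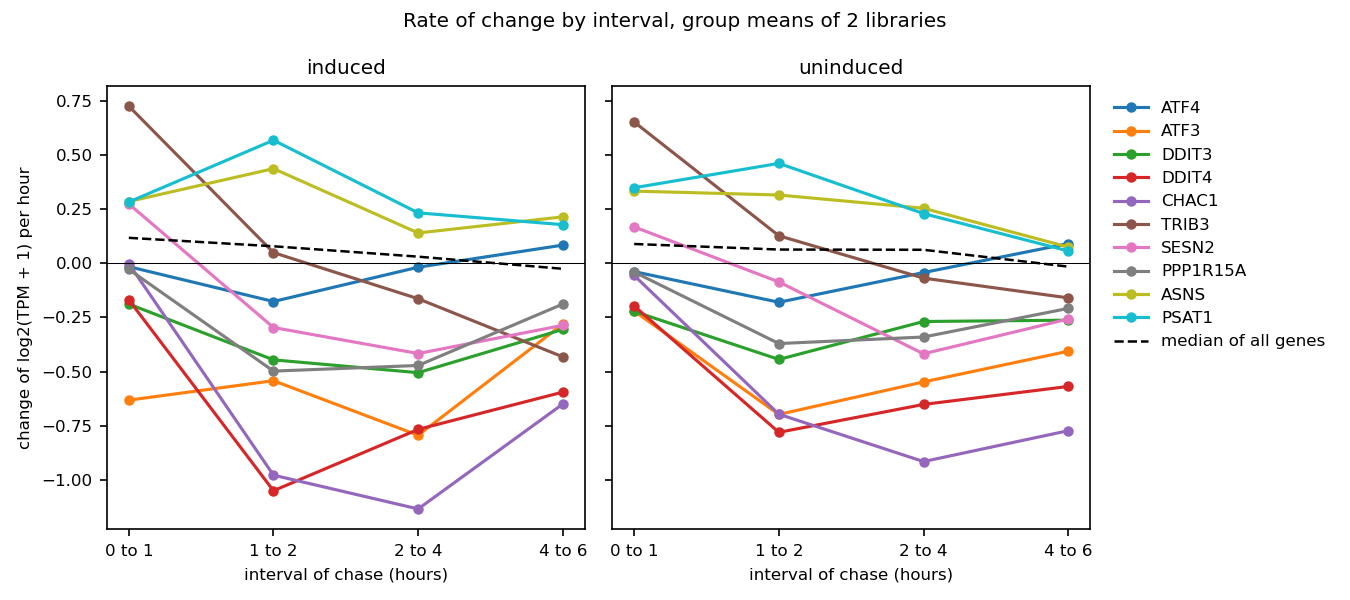
Change of log2(TPM + 1) per hour in 4 successive intervals of the chase, from the means of 2 libraries, for the induced (left) and uninduced (right) arm, 1 coloured line per gene and a dashed line for the median of all genes. TRIB3 starts highest, at 0.72 in the induced and 0.65 in the uninduced arm, while CHAC1 starts near 0 and reaches -1.13 in the induced and -0.91 in the uninduced arm between 2 and 4 h.

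Averaged over the 6 times, most of the stress response mRNAs were lower in the induced arm. CHAC1, DDIT4, SESN2, TRIB3, DDIT3 and ATF4 were lower, 6 of 10 members against 11.4% of all genes, and none was higher, against 14.3%. The fit took the libraries of the 6 times as independent, though by their labels they form 2 replicate series in each arm. Spread between those series may not be measured by the SEs and p-values given here. The members' median difference, induced minus uninduced, was -0.20 on the log2(TPM + 1) scale, beside 0.051 over all genes. CHAC1 had the largest difference, -0.57 ± 0.061 (SE, adjusted p = 8.31e-06), and both induced libraries lay below both uninduced ones at 6 of 6 times. DDIT4 differed by -0.37 ± 0.091 (adjusted p = 0.00698) and SESN2 by -0.31 ± 0.075 (adjusted p = 0.00704), with the induced libraries below at 3 and 4 of 6 times. TRIB3 differed by -0.30 ± 0.080 (adjusted p = 0.0130) and DDIT3 by -0.29 ± 0.053 (adjusted p = 0.000922), below at 2 and 4 of 6 times. ATF4 was lower by a small amount, -0.11 ± 0.030 (adjusted p = 0.0122), and passed neither under quantile normalization (-0.041, adjusted p = 0.304) nor with no filter on low genes (adjusted p = 0.0696). The other 4 did not pass: PPP1R15A had -0.094, ASNS -0.014, PSAT1 0.038 and ATF3 0.087, with adjusted p from 0.239 to 0.932.

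At 6 h TRIB3, CHAC1 and DDIT3 were lower in the induced arm, 3 of 10 members against 8.04% of all genes, and none was higher, against 1.10%. TRIB3 averaged 262 ± 3.25 TPM in induced and 479.9 ± 93.0 TPM in uninduced cells (SD, n = 2 each), a difference of -0.86 ± 0.20 (adjusted p = 0.00914). CHAC1 averaged 5.24 ± 0.191 TPM in induced and 9.69 ± 0.269 TPM in uninduced cells, a difference of -0.78 ± 0.15 (adjusted p = 0.00269). DDIT3 averaged 85.2 ± 12.6 TPM in induced and 133 ± 16.6 TPM in uninduced cells, a difference of -0.64 ± 0.13 (adjusted p = 0.00379). Single libraries decided part of this: without replicate 1 of the induced arm at 6 h DDIT3 had an adjusted p of 0.0849 and TRIB3 of 0.0646, and only CHAC1 passed. Without replicate 1 of the uninduced arm at 6 h the values were 0.0809 for DDIT3 and 0.154 for TRIB3, and without replicate 2 of the induced arm at 6 h TRIB3 had 0.0609. DDIT4 averaged 192 ± 15.0 TPM in induced and 316 ± 93.9 TPM in uninduced cells, and its difference of -0.69 ± 0.22 just missed the threshold (adjusted p = 0.0657). It rested on single libraries, with -0.38 without replicate 1 of the uninduced arm at 6 h (adjusted p = 0.522) and -0.995 without replicate 2 (adjusted p = 0.0238). SESN2 had -0.41 ± 0.18 (adjusted p = 0.208). With a replicate term in the limma fit DDIT4 and SESN2 also passed, with adjusted p of 0.000986 and 0.011. Calls over all genes grew with that term too: 406 were higher, 21.7% of those called, against 148 and 12.1% without it. The labels do not say what libraries of the same replicate number share. The induced level was 0.767 of the uninduced level at 0 h and 0.540 at 6 h for CHAC1, and 0.879 and 0.606 for DDIT4.

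At the start of the chase, and in the slopes, no member passed the threshold between the arms. At 0 h limma called none of the members, against 0.0298% of all genes, and 2 had an unadjusted p under 0.05, beside 881 of all 13416 genes. These were ATF3, with 0.43 ± 0.20 (unadjusted p = 0.0435, adjusted p = 0.746), and CHAC1, with -0.36 ± 0.15 (unadjusted p = 0.0266, adjusted p = 0.677). Leaving out 1 library gave 0.26 to 0.61 for ATF3 and -0.60 to -0.12 for CHAC1, the values nearest 0 being those without replicate 1 of the uninduced arm at 0 h for CHAC1 and without replicate 2 of the induced arm at 0 h for ATF3. For the slope difference limma called none of the members, against 0.343% of all genes, and 2 had an unadjusted p under 0.05, beside 1673 of all 13416 genes. DDIT3 had -0.096 ± 0.027 per hour (unadjusted p = 0.00143, adjusted p = 0.110) and DDIT4 -0.099 ± 0.046 (unadjusted p = 0.0420, adjusted p = 0.377). CHAC1 had -0.10 ± 0.058 and TRIB3 -0.11 ± 0.069, with the widest error of the 10 for TRIB3. In all, 7 of 10 differences were negative, with a median of -0.074 beside -0.0094 over all genes. Many other genes were negative too: 57.4% of all genes had a lower slope difference than ASNS, whose value was 0.00067. With the 3 noncoding RNAs taken out of the total, DDIT3 passed, at -0.11 (adjusted p = 0.0476).

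**Figure D4:**
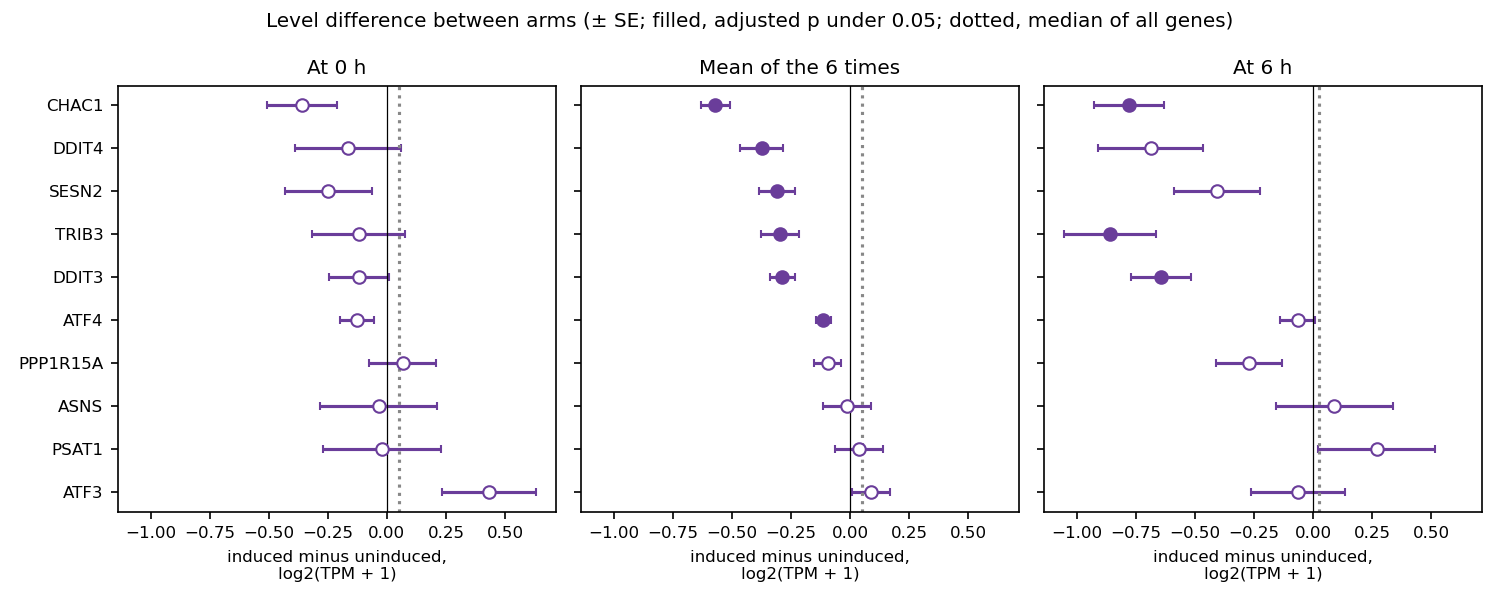
Difference of log2(TPM + 1), induced minus uninduced, with its SE, at 0 h, averaged over the 6 times and at 6 h, filled where the adjusted p is under 0.05 and with a dotted line at the median of all genes. At 0 h no point is filled, over the chase 6 are, with CHAC1 at -0.57, and at 6 h TRIB3, CHAC1 and DDIT3 are, between -0.86 and -0.64.

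The deposited table lists the genes by RefSeq transcript, and for DDIT3 and ASNS the gene sums hid unlike courses. TRIB3, DDIT4, SESN2 and PPP1R15A have 1 transcript each, and a single transcript holds nearly all of CHAC1 and ATF4. ATF3 has 6 transcripts, the largest with 38.7% of its TPM, and PSAT1 has 2. In ATF3 the share of NM_001030287 varied, with 52.5% and 36.8% at 0 h, 15.7% and 48.3% at 4 h and 24.7% and 12.1% at 6 h in the induced libraries. In the uninduced libraries it was 46.6% and 50.4% at 0 h, 36.7% and 19.7% at 4 h and 17.7% and 36.6% at 6 h. Libraries of the same arm and time thus lay far apart late in the chase, and no steady course was seen. Of the 6 DDIT3 transcripts, NM_001195056 held 36.2% and 37.7% of the gene's TPM in the induced libraries at 0 h and 79.4% and 71.8% at 6 h. In the uninduced libraries it held 28.1% and 35.6% at 0 h and 83.0% and 71.1% at 6 h. NM_004083 had 143 and 175 TPM at 0 h and 15.7 and 0 TPM at 6 h in the induced libraries, against 113 and 149 TPM at 0 h and 15.0 and 23.1 TPM at 6 h in the uninduced libraries. The share of NM_001195056 in DDIT3 was thus larger at 6 h than at 0 h in both arms, and the arms overlapped at 6 h and were apart at 0 h, with the induced libraries higher. For ASNS, NM_133436 had 24.4 and 15.2 TPM at 0 h and 19.1 and 13.4 TPM at 6 h in the induced libraries, against 23.2 and 19.8 TPM at 0 h and 19.1 and 23.8 TPM at 6 h in the uninduced libraries. NM_001673 had 6.33 and 3.18 TPM at 0 h and 26.2 and 30.9 TPM at 6 h in the induced libraries, against 4.07 and 0 TPM at 0 h and 24.2 and 13.8 TPM at 6 h in the uninduced libraries. NM_001178077 had 0 and 4.85 TPM at 0 h and 36.4 and 11.2 TPM at 6 h in the induced libraries, against 2.18 and 5.23 TPM at 0 h and 33.0 and 24.9 TPM at 6 h in the uninduced libraries. NM_183356 had 0 and 11.0 TPM at 6 h in the induced libraries, against 0 TPM in both uninduced libraries. The larger sum of the gene at 6 h thus lay mostly in transcripts other than NM_133436, whose slope was -0.050 per hour in the induced arm and -0.0015 in the uninduced arm. The transcripts of a gene share most of their sequence, and the split between them is an estimate of uncertain accuracy. For DDIT3 and for ASNS 5 of 6 transcripts are listed at 0 in some library.

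**Figure D5:**
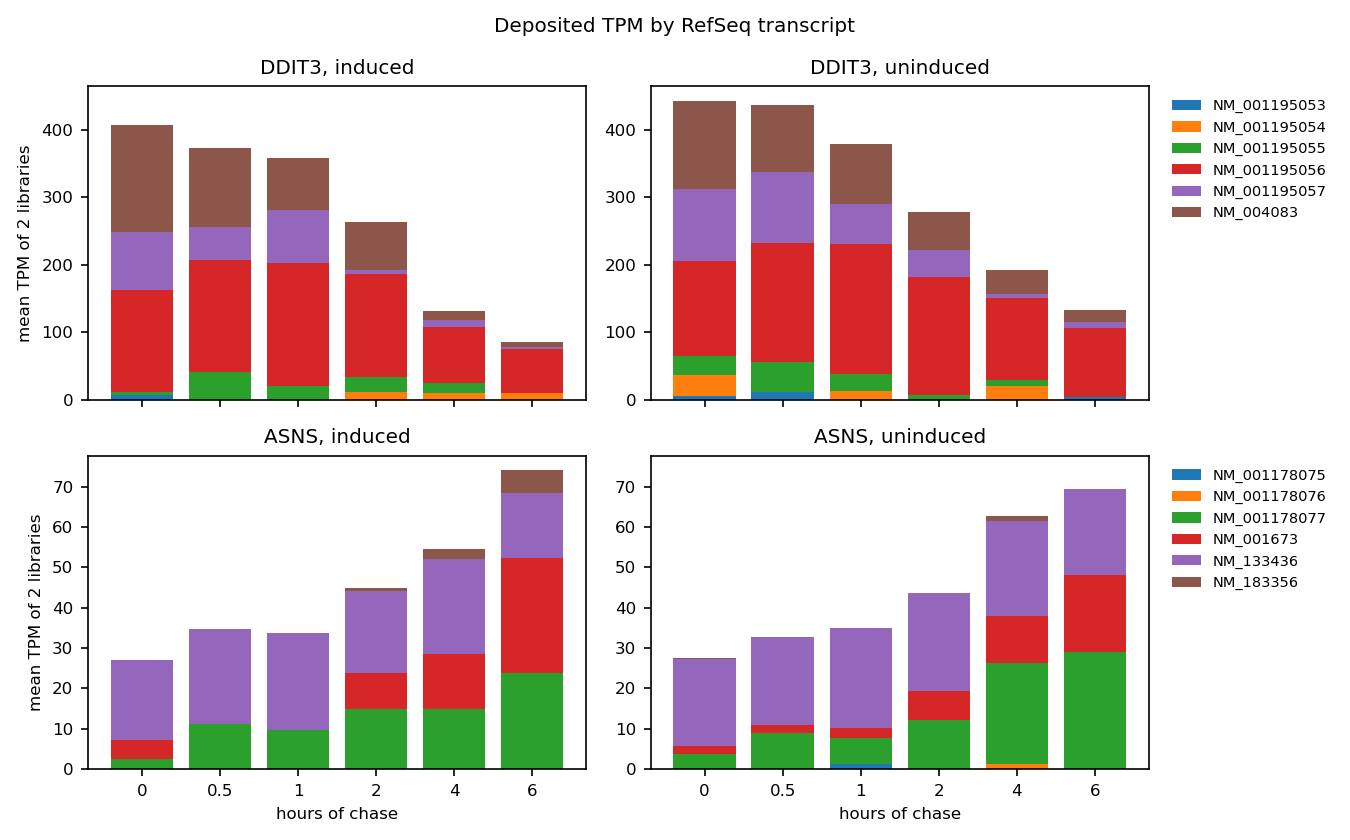
Mean TPM of 2 libraries against hours of chase for DDIT3 (top) and ASNS (bottom), induced on the left and uninduced on the right, with each bar stacked by RefSeq transcript. The DDIT3 bars shrink mostly outside NM_001195056, while the ASNS bars grow mostly in NM_001673 and NM_001178077.

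Across the 12 group means of log2(TPM + 1), which share the same libraries and the same chase, the 6 falling genes ran close together, with Pearson's r between 0.897 (ATF3 with SESN2) and 0.996 (CHAC1 with DDIT4). ASNS and PSAT1 had an r of 0.989 with each other. ATF4 followed none of its target genes closely, with r from -0.524 for PSAT1 to 0.465 for DDIT3, and TRIB3 reached at most 0.521, with SESN2. Among 10375 genes averaging 5 TPM or more, those most like ATF4 were KLHL35 (r = 0.928), GLYCTK (0.854) and HS1BP3 (0.826). Those most like DDIT3 were ZNF232 (r = 0.995), RAB20 (0.995) and ZNF565 (0.995). Many mRNAs fall along the chase, so a high r describes a shared course in these 12 means only.

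Other parts of the pathway were set beside the 10 genes as 4 lists, with level differences given as induced minus uninduced on the log2(TPM + 1) scale. Of the 19 genes for eIF2 kinases, eIF2 and eIF2B subunits and cofactors, which sit upstream of ATF4, all were kept. In the induced arm 12 rose and 2 fell, beside 41.6% rising and 29.0% falling among all genes, and in the uninduced arm 12 rose and none fell, beside 42.8% rising and 22.3% falling. Averaged over the chase 5 were higher and 1 lower in the induced arm, beside 14.3% higher and 11.4% lower among all genes. At 6 h 2 of 19 were lower, near the 8.04% of all genes, namely PPP1R15B (-0.53, adjusted p = 0.00122) and NCK1 (-0.55, adjusted p = 0.0381). PPP1R15B is the constitutive partner of PPP1R15A as an eIF2 phosphatase subunit, and NCK1 is an adaptor found with that phosphatase. PPP1R15B had 387 and 415 TPM at 6 h in the induced libraries, against 574 and 583 TPM in the uninduced libraries. EIF2D and EIF2B1, the other 2 with the smallest p for the slope difference in this list, had slope differences of 0.053 and 0.064 per hour (adjusted p = 0.500 and 0.544).

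The bZIP partners and other transcription regulators, of which 11 of 14 were kept, included both falling and rising genes. In the induced arm 3 rose and 7 fell, beside 41.6% rising and 29.0% falling among all genes, and in the uninduced arm 2 rose and 5 fell, beside 42.8% rising and 22.3% falling. Averaged over the chase 7 were lower and 1 higher in the induced arm, beside 11.4% lower and 14.3% higher among all genes, with a median difference of -0.28 beside 0.051 over all genes. At 6 h 6 of 11 were lower, beside 8.04% of all genes, and none higher, beside 1.10%, with a median of -0.66. NFE2L2, which encodes the antioxidant factor NRF2, was the only gene of the 4 lists past the threshold for the slope difference, with -0.18 per hour (adjusted p = 0.00686). It had 44.9 and 41.6 TPM at 6 h in the induced libraries, against 90.6 and 76.0 TPM in the uninduced libraries. CEBPB and CEBPD, bZIP partners of ATF4 and DDIT3, differed at 6 h by -0.92 (adjusted p = 0.00358) and -1.21 (adjusted p = 0.0247), and XBP1, a factor of the unfolded protein response, by -0.66 (adjusted p = 0.00432). CEBPG and ATF5, the other two that were lower at 6 h, were named after their values were seen, and differed by -0.71 (adjusted p = 0.00128) and -0.55 (adjusted p = 0.0142).

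Of the genes for amino acid transport, serine, one-carbon and glutathione metabolism, 22 of 23 were kept, and most rose, as ASNS and PSAT1 did. In the induced arm 15 rose and 3 fell, beside 41.6% rising and 29.0% falling among all genes, and in the uninduced arm 14 rose and 3 fell, beside 42.8% rising and 22.3% falling. None differed between arms at 6 h past the threshold by limma, beside 8.04% lower and 1.10% higher among all genes. In that fit 1 of 22 had an unadjusted p under 0.05, beside 2909 of all 13416 genes. Averaged over the chase 3 were higher and 1 lower, beside 14.3% and 11.4% of all genes. SLC38A2, a neutral amino acid transporter, fell by 0.39 per hour in the induced arm and by 0.28 in the uninduced arm, with a slope difference of -0.11 (adjusted p = 0.138). SHMT2, CHAC2 and CBS had slope differences of 0.067, -0.070 and 0.073 (adjusted p from 0.420 to 0.507).

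The list of other genes reported downstream of ATF4 or DDIT3 was mixed, with 27 of 30 kept. In the induced arm 10 rose and 11 fell, beside 41.6% rising and 29.0% falling among all genes, and in the uninduced arm 11 rose and 9 fell, beside 42.8% rising and 22.3% falling. Averaged over the chase 8 were higher and 3 lower in the induced arm, beside 14.3% higher and 11.4% lower among all genes. At 6 h 4 were lower, beside 8.04% of all genes, and none higher, beside 1.10%. SESN1, a sestrin related to SESN2, differed by -0.74 at 6 h (adjusted p = 0.00492). BBC3, the apoptosis inducer PUMA, differed by -0.59 (adjusted p = 0.0357) and JMJD6 by -0.58 (adjusted p = 0.00248). ADM2, the fourth gene lower at 6 h, was named after its values were seen and differed by -0.98 (adjusted p = 0.00309). CDKN1A, the cell cycle inhibitor p21, fell by 0.33 per hour in the induced arm and by 0.23 in the uninduced arm, and was higher by 0.34 in the induced arm over the chase (adjusted p = 0.00118). GDF15, a stress cytokine named after its values were seen, was also higher over the chase, by 0.36 (adjusted p = 0.00249).

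The libraries bear on these values as follows. TOB2, in which native and transgene reads cannot be told apart, checked the induction, with 653 and 516 TPM at 0 h and 711 and 576 TPM at 6 h in the induced libraries, against 267 and 246 TPM at 0 h and 105 and 92.3 TPM at 6 h in the uninduced libraries. The 3 noncoding RNAs took 7.14% to 27.5% of the TPM in induced libraries and 7.78% to 22.6% in uninduced libraries, and replicate 2 of the induced arm at 0 and 0.5 h held the most. Without those 2 libraries the same number of members, 6, was lower over the chase, and TRIB3 fell in the induced arm by 0.14 per hour (adjusted p = 0.0139). Under median-of-ratios scaling the all-gene median over 6 h shifted by -0.19 on the log2 scale in the induced arm and -0.26 in the uninduced arm. It moved the share of rising among called genes in the uninduced arm to 48.4%, against 65.8% as deposited, and the share of higher among called genes at 6 h to 25.7%, against 12.1%. Of 8 mesenchymal markers 5 were kept, and VIM had 346 to 968 TPM. Other kept ones were lower, with means of 94.4 TPM for CD44, 16.2 for COL5A1, 12.5 for COL1A1 and 4.13 for RUNX2. THY1, SPARC and COL1A2 were not kept, with means of 0.441, 0.198 and 0.00125 TPM. Of 6 osteoblast markers 1 was kept, with a sum of at most 6.56 TPM in induced and 5.13 TPM in uninduced libraries, and IBSP was at 0 in all. The labels call the line epithelial, but none of 6 epithelial markers was kept, their sum was at most 0.750 TPM in induced and 0.440 TPM in uninduced libraries, and EPCAM was at 0 in all. Of 6 leukocyte markers 2 were kept, LYZ and CD14, and the 6 summed to 16.0 to 62.5 TPM in induced and 14.2 to 44.0 TPM in uninduced libraries, nearly all of it LYZ, and their part in the results was not tested.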

How the data were processed

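The values were TPM per RefSeq transcript, deposited by the authors with 2 decimals in a single table. Per the submitters' processing notes, the tools were RSEM 1.3.0, Bowtie2 and Trim Galore and the build was hg19, with no roles given. TPM adds up to the same total in each library, so the depth is unknown and counting error cannot be computed. TPM of 48009 transcripts, 3 of them without a symbol, was summed per gene symbol, and genes averaging 1 TPM or more were kept.

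Models were fitted on log2(TPM + 1) with limma 3.58.1 in R 4.3.3 over all 24 libraries, with a variance trend, no replicate term, two-sided tests and Benjamini-Hochberg adjustment over 13416 genes. A line per arm gave the slopes (20 residual degrees of freedom). A mean for each of the 12 groups gave the differences at 0 h, averaged over the 6 times and at 6 h (12 residual degrees of freedom). Fold changes on this scale understate those of low genes. The fit of the slope difference was tested on simulated straight lines with independent noise. Those data held neither curved courses nor an offset shared by a replicate series, so the test does not cover them.

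The members and lists were chosen with earlier results of these data known. The rule named all 10 members, TOB2, the 4 genes of each list with the smallest p for the slope difference, and the 3 genes most like ATF4 and DDIT3 by Pearson's r. Tables were handled with pandas 2.3.3 and plots drawn with matplotlib 3.10.9 in Python 3.11.15. Alternatives covered the pseudocount, the filter, scaling, a replicate term, transcripts in place of genes, shorter chases and leaving out libraries. Removal of 3 noncoding RNAs, of the 2 libraries richest in them, and the 6 h minus 0 h contrast were added after the data were seen.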

Additional observations from a re-analysis of the deposited data

Results flagged for a closer look

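Between the start and the end of the chase TRIB3 had changes of opposite sign in the arms in the deposited scaling. Its log2(TPM + 1) changed by -0.55 and -0.29 from 0 to 6 h in the induced libraries of replicate 1 and 2, against 0.31 and 0.34 in the uninduced ones, a mean difference of -0.74, induced minus uninduced. This is by replicate number, which the labels do not tie to a shared culture, and the uninduced libraries of 0 and 6 h overlapped. In the test of the difference itself, the limma contrast of 6 h minus 0 h divided by 6, TRIB3 had -0.12 per hour and did not pass the threshold (adjusted p = 0.255). The uninduced sign may depend on the scaling. The 3 noncoding RNAs held 22.1% and 22.6% of the uninduced TPM at 0 h and 7.78% and 8.45% at 6 h. The uninduced TRIB3 slope was -0.029 under median-of-ratios scaling, -0.017 under quantile normalization and -0.019 without those RNAs, none past the threshold.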

How the results depend on the processing

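No call of CHAC1 changed under any alternative run, and of the 6 members lower over the chase only ATF4 lost its call, under quantile normalization and with no filter. Leaving out 1 library or replicate series at a time gave 6 to 7 falling and 2 rising members in the induced arm and 6 to 7 falling and 2 rising in the uninduced arm, 6 lower over the chase, 1 to 4 lower at 6 h, and 0 called for the slope difference or at 0 h. Signs near 0 turned in these runs, with ranges for the slope difference of ASNS -0.029 to 0.020, for the uninduced slope of TRIB3 -0.013 to 0.065, at 0 h of ASNS -0.23 to 0.16, DDIT4 -0.45 to 0.12, PPP1R15A -0.12 to 0.25, PSAT1 -0.24 to 0.20, TRIB3 -0.34 to 0.097, over the chase of ASNS -0.072 to 0.044, PSAT1 -0.0082 to 0.084, and at 6 h of ASNS -0.056 to 0.24, ATF3 -0.15 to 0.021. Over all genes kept, same-numbered libraries of the 2 arms deviated together only weakly, with correlations of 0.0203 to 0.156 over the 6 times. All were positive and over 0.1 at 3 of 6, short of every pair, so the main fits did not pair the libraries. For TRIB3, DDIT4, ASNS and PSAT1, though, replicate 1 was above replicate 2 at every time in both arms. The main fits leave that offset in the error. With a replicate block 5 members were lower at 6 h, DDIT4 (adjusted p = 0.000986) and SESN2 (0.0110) besides the 3. Calls over all genes also grew at 6 h: 406 genes were higher, 21.7% of those called, against 148 and 12.1% without the block. For the slopes, 97 genes had a lower slope in the induced arm with the block, against 45 without it. That count was 87 and 24 with pseudocounts of 0.1 and 5, 29 with no filter, 82 with a mean of at least 5 TPM, 161 with quantile normalization, 6 with transcripts, 324 without 3 noncoding RNAs, 325 without the 2 libraries richest in them, 192 as 6 h minus 0 h and 0 for the chase to 2 or 4 h. Without the noncoding RNAs 1 member, DDIT3, passed for the slope difference. With the most abundant transcript in place of the gene, 1 member rose in each arm, since ASNS turned to -0.050 in the induced and -0.0015 in the uninduced arm. Other values turned sign, none past the threshold unless said. With transcripts these were ASNS (-0.048 for the slope difference, -0.39 at 6 h), DDIT3 (0.11 at 0 h) and PSAT1 (-0.089 over the chase). Quantile normalization turned TRIB3 (-0.017, uninduced slope), ATF4 (-0.037, slope difference; 0.068 at 0 h) and DDIT4 (0.11 at 0 h), and median-of-ratios TRIB3 (-0.029) and PSAT1 (-0.0018 over the chase). The chase to 2 h turned SESN2 (0.0025 and 0.031, induced and uninduced slopes), TRIB3 (induced slope 0.39, past the threshold; difference 0.034) and DDIT3 (difference 0.038), and the chase to 4 h TRIB3 (induced slope 0.088) and ASNS (difference -0.045). Without the noncoding RNAs TRIB3 (-0.019, uninduced slope), ASNS (-0.0088 for the difference, 0.0027 at 0 h, 0.0063 over the chase) and PSAT1 (0.016 at 0 h) turned. Without the 2 libraries richest in them ASNS (-0.026 for the difference, 0.16 at 0 h, 0.060 over the chase), TRIB3 (0.023 at 0 h) and PSAT1 (0.20 at 0 h) turned. DDIT4 at 6 h passed with a mean of at least 5 TPM (adjusted p = 0.0495), median-of-ratios (0.0224) and without the noncoding RNAs (0.0403). The causes were not tested. Only 2 libraries a group and an unknown depth limit the precision.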
